A study of Mus musculus with 11 samples.

Results

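The baseline transcriptome of the wild-type mouse heart at embryonic day E14.5 was described from 6 libraries of the 11 in the series, each made from 1 embryonic heart of genotype Pde2A+/+. They were chosen by their labelled genotype alone, and every one of the 55487 annotated genes counted in them was considered. The embryos came from crosses of heterozygous carriers of the Pde2A tm1Dgen allele on a B6; 129P2 background, and no treatment is given for the sequenced embryos. The study collected male and female embryos, and the sex, litter and batch of each library are not given. The hearts are called by their labels: 7, 11, 6, 8, H and E. Each is 1 sample of isolated heart tissue in which myocytes, endocardium, epicardium, valve mesenchyme and blood are mixed. Fewer cells of a type and less RNA per cell therefore cannot be told apart. The 5 libraries of the other genotype were not used here.

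At this stage the 4 chambers are being separated, the compact ventricular wall is thickening and the myocytes still divide. Contraction rests on the sarcomere, in which myosin of the thick filament pulls on actin of the thin filament under the control of troponin and calcium. Many of its proteins exist as a pair of genes, of which 1 dominates in the fetus and the other in the adult, in the atrium or in skeletal muscle, and the balance within such pairs is widely used to describe the maturity and the chamber of cardiac tissue.

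The total count per heart, on the strand of each gene, was 36032788 to 41337949, with a median of 37934543. A gene's level is given as CPM, its counts scaled to the same total in each heart, where it is compared between hearts. Where genes are compared with each other it is given as TPM, which also divides by exon length. In the 6 hearts 20.7% to 22.4% of the reads were not counted, mostly because they mapped to several places (11.6% to 13.2%). The correlation of log2 CPM across genes lay between 0.981 and 0.992 for the 15 pairs of hearts. Genes are not independent replicates, and this value describes the libraries only.

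Before the results, genes of other tissues have to be described, because they set some hearts apart. Heart 7 held 137 CPM of 12 thymus and lymphocyte genes, while the other 5 held between 2.18 and 2.98. Psmb11, a proteasome subunit of the thymic cortex, stood at 27.1 CPM in heart 7, and Rag1, which cuts antigen receptor genes, at 33.3 CPM, against at most 0.0491 and 0.0555 CPM in the others. In 12 genes of lung and airway epithelium, hearts 7 and 11 held 154 and 103 CPM, against 2.10 to 6.17 CPM in the rest. The genes that made up these sums differed between the pair of hearts. Krt5, a keratin of basal epithelium, was at 97.3 CPM in heart 7 and 4.77 CPM in heart 11. Nkx2-1, the transcription factor of lung and thyroid, was at 5.33 CPM in heart 11 and at 0 in heart 7, while the surfactant gene Sftpc had no count in any heart. The 12 liver genes summed to 175 CPM in heart E, 86.7 CPM in heart 11 and 72.4 CPM in heart H, against 30.4 to 31.7 CPM in the rest. Of these 12, 11 reached 1 CPM in heart E and 2 in hearts 7 and 6. What tissue all these reads came from was not tested. Variation between hearts is given with and without hearts 7 and 11, a choice made after the values were seen. Heart E was left out only in turn, as was each other heart.

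The cells of the heart itself were present in every library. The 15 cardiomyocyte markers together held between 41580 CPM in heart 11 and 52978 CPM in heart 6, and all 15 reached 1 CPM in every heart. All 14 endothelial and endocardial markers did so as well, with a sum of 1643 to 1930 CPM, a ratio of highest to lowest of 1.17, the smallest among the 17 lists plotted. The highest of them per exon length was Cdh5, the cadherin of endothelial junctions, at 257 ± 23.6 TPM, followed by Eng, a co-receptor of the TGF-beta family, at 185 ± 18.0 TPM. The fibroblast and valve mesenchyme list lay between 6744 CPM in heart 6 and 12111 CPM in heart 11. The 12 epicardial markers lay between 319 CPM in heart H and 744 CPM in heart 11, a difference of 2.33-fold. Its highest members were Upk3b, a mesothelial membrane protein, at 65.1 CPM in heart H and 207 CPM in heart 11, the keratin Krt19, at 30.9 and 72.05 CPM in the same hearts, and Aldh1a2, which makes retinoic acid, at 28.0 and 86.5 CPM. Heart 8 was the second highest for all 3. The 12 macrophage markers summed to 123 to 199 CPM, with Csf1r, the receptor for colony-stimulating factor, at 30.9 to 52.7 CPM. The 10 smooth muscle and pericyte markers summed to 1699 to 2290 CPM, of which Acta2 made up most at 979 to 1429 CPM. Acta2 is also active in fetal cardiomyocytes. Of the 13 skeletal muscle genes, 5 were at 1 CPM in every heart and 5 in none, and their sum stayed between 28.3 and 60.9 CPM. Lists for brown fat, cartilage and bone, neural crest and neurons, and thyroid and pharynx stayed at or below 156 CPM in every heart.

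**Figure D1:**
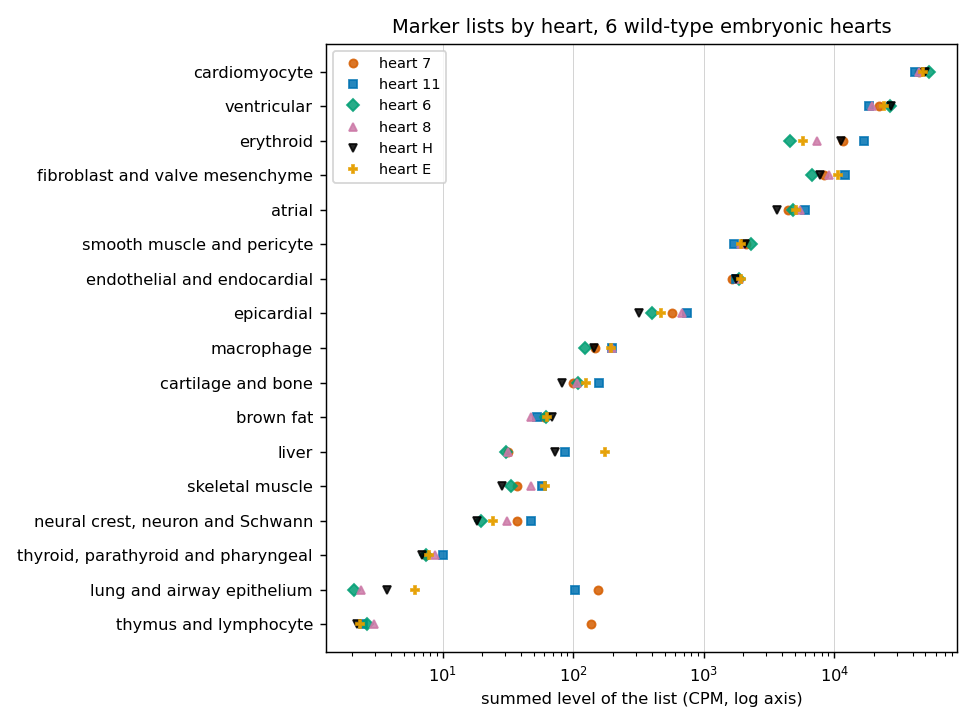
Summed level in CPM (log axis) of each list of marker genes in each of the 6 wild-type hearts; every symbol is 1 heart. Cardiomyocyte sums lie between 41580 and 52978 CPM and epicardial sums spread 2.33-fold, while heart 7 stands apart at 137 CPM for thymus and lymphocyte genes and hearts 7 and 11 stand apart for lung and airway epithelium. Liver sums lie between 30.4 CPM in heart 6 and 175 CPM in heart E.

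A level of at least 1 CPM in every heart was reached by 13306 genes, of which 12508 code for protein. At 10 CPM the number was 9640, at 100 CPM it was 2023 and at 1000 CPM it was 59. The 2023 genes at 100 CPM carried 64.4% of the counts. The counts were spread over many genes: between 950 genes in heart 6 and 1020 in heart 7 were needed to hold 50% of them, and between 5987 and 6220 to hold 90%. The 10 genes of highest mean CPM held 7.19% of the counts. No count in any heart was found for 24190 genes.

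The gene with the most reads was Myh7, the slow or beta myosin heavy chain, with 1.39% of all counts. It ranged from 11031 CPM in heart 11 over a median of 14033 to 16673 CPM in heart H. The next was H19, an imprinted non-coding RNA of the fetus (chromosome 7, 142575529 to 142578143, GRCm38), at 10545 ± 332 CPM (mean ± SD, n = 6, as for every value given this way). Hearts 11 and 8 were low for Myh7 and hearts H and 6 high, whereas H19 differed little between hearts. The mitochondrial gene mt-Co1, a subunit of cytochrome oxidase, followed at 9685 ± 468 CPM, and Actc1, the cardiac alpha-actin, at 7901 ± 1002 CPM. Tnnt2, cardiac troponin T, was at 5092 ± 598 CPM, and Eef1a1, which brings aminoacyl-tRNA to the ribosome, at 4423 ± 80.4 CPM.

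Per exon length the order changed, and 64 genes were shared by the 100 highest in CPM and the 100 highest in TPM. Among nuclear genes Actc1 (chromosome 2, 114047282 to 114053548) led with 16621 ± 2202 TPM. Its lowest value was 13558 TPM, its median 16253 TPM and its highest 19809 TPM. H19 came next at 14587 ± 646 TPM, and the globin genes Hbb-bs, Hbb-y and Hba-a1 stood at 12178 ± 6493, 10723 ± 5078 and 7247 ± 3402 TPM. The SD of each globin was close to 50% of its mean. An SD between hearts does not measure the order of genes within a heart, which was not tested here. No order is therefore drawn among the globins or against neighbours such as Myl2 (7000 ± 1078 TPM), the ventricular regulatory light chain. The order also depends on the length used. With the longest transcript of each gene, Myl2 was at 11765 TPM, above Hbb-bs at 11436 and Hbb-y at 8232 TPM. Of the 100 highest in TPM, 86 were shared under both lengths. Myh7, first by reads, fell to 5480 ± 1039 TPM because it has 8616 exon bases. Nppa, the atrial natriuretic peptide, was at 5923 ± 1595 TPM, and Tnnc1, troponin C of slow and cardiac muscle, at 4871 ± 480 TPM. The rest of the 25 highest were the myosin light chains Myl7 and Myl3, myosin-binding protein Mybpc3, the elongation factors Eef1a1 and Eef2, the ribosomal proteins Rplp1 and Rps15, the chaperone Hsp90ab1, the ATP synthase subunit Atp5b, the adenine nucleotide carrier Slc25a4, the mitochondrial dehydrogenase Idh2, the globins Hbb-bt and Hba-a2, and 3 non-coding genes.

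**Figure D2:**
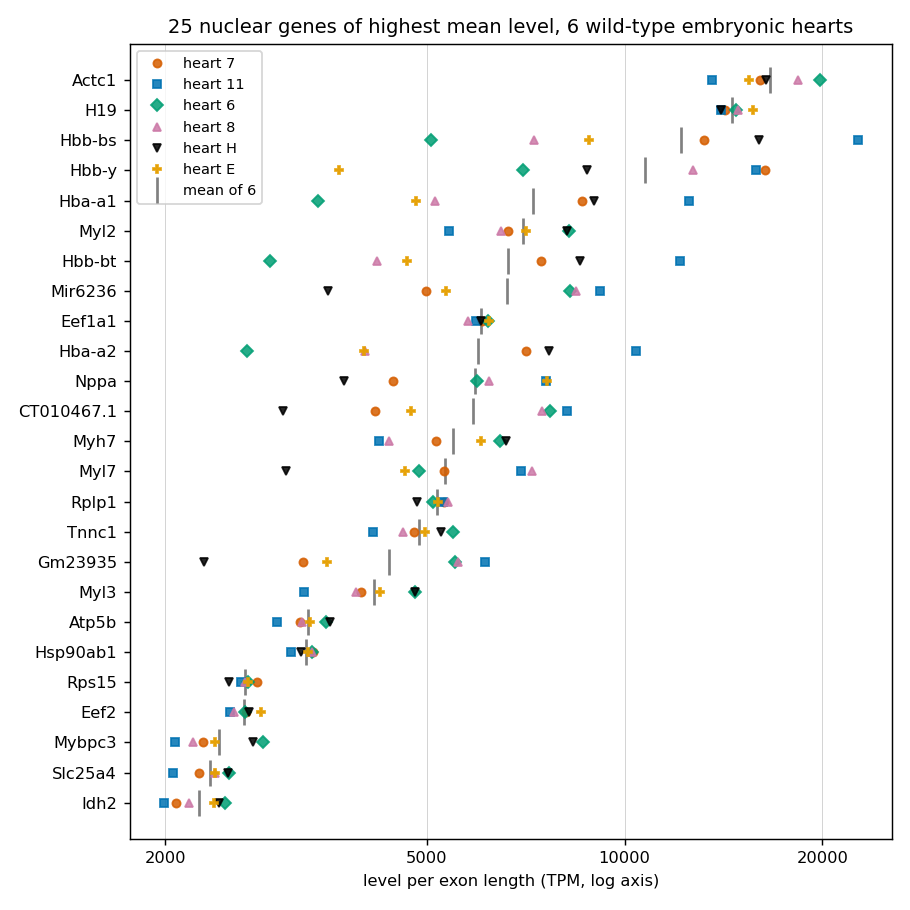
Level per exon length (TPM, log axis) of the 25 nuclear genes of highest mean in the 6 wild-type hearts; symbols are hearts and grey ticks their means. The globins and the non-coding genes CT010467.1, Mir6236 and Gm23935 are spread widely, while Eef1a1, H19 and Rplp1 lie close together.

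The 3 non-coding genes were CT010467.1, annotated as rRNA, and Mir6236 and Gm23935, annotated as miRNA. CT010467.1 ranged from 2179 CPM in heart H to 6099 CPM in heart 11. Mir6236 ranged from 127 to 341 CPM in the same hearts, and its high TPM rests on an exon length of 123 bases. Of the 50-base words of CT010467.1, 69.1% also occur in transcripts of other genes, and of Gm23935, which has only 57 bases, all 8. Here and below, words were searched on both strands and in all other annotated genes, also those that overlap at the same place. The share is therefore no measure of the reads lost to several mapping places. All 3 genes were highest in heart 11 and lowest in heart H. The counts on Mir6236 belong to its annotated gene, which is longer than the mature miRNA, and which part of it the reads covered is not recorded in a count. The RefSeq mature sequence at that place (GRCm38.p6, chr9:110281353-110281371, plus strand) is shown because this gene is listed among the highest, with bases 2 to 8, the seed, in capitals.
mmu-miR-6236: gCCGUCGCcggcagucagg

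Protein-coding genes held 97.5% ± 0.187 of the counts and lincRNA genes 1.25% ± 0.0342, most of it H19. The genes of the sarcomere, the Z-disc, which anchors the thin filaments, and the intermediate filaments were 43 in number and together held 6.28% ± 0.561. Heart 11 was lowest at 5.52%, the median was 6.17% and heart 6 was highest at 7.12%. In the Z-disc and intermediate filament list, Actn2, the actinin that crosslinks thin filaments, was highest at 1575 ± 198 TPM. Ankrd1, a stress-responsive repeat protein bound to titin, came next and varied more, from 785 CPM in heart H over a median of 962 to 1411 CPM in heart 6. The 79 cytosolic ribosomal protein genes held 2.55% ± 0.0971, and the 84 nuclear subunits of the respiratory chain 2.26% ± 0.113. Of the 50-base words, 60% of Rplp1, 30.3% of Rps15 and 40.4% of Eef1a1 occur in another gene. A read that maps to several places is not counted. The levels of these genes, and the ribosomal protein share, may therefore be too low. Glycolytic enzymes (19 genes) held 1.25% ± 0.0717 and fatty acid uptake and oxidation (18 genes) 0.284% ± 0.0240. Every gene of both lists reached 1 CPM in every heart. The highest enzymes were Aldoa (2187 ± 149 TPM) and Tpi1 (1331 ± 84.5 TPM) of glycolysis, with Ldha between them at 1676 ± 138 TPM, and Acadl (1102 ± 126 TPM) of fatty acid oxidation. The 24 cell cycle genes, all above 1 CPM in every heart, held 0.519% ± 0.0227, with heart 8 highest at 0.561%. Cdk4, a kinase of the G1 phase, was at 353 ± 17.7 TPM and Rrm2, which makes deoxynucleotides for replication, at 294 ± 29.4 TPM, with ranges that overlap.

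The cardiac transcription factors, which set and keep the identity of the myocyte, all reached 1 CPM in every heart (24 of 24) and together held 0.275% of the counts. Hopx, a cofactor of the cardiac programme that binds no DNA itself, was the highest per exon length at 456 ± 52.9 TPM. Nkx2-5, the homeobox factor that marks cardiac progenitors and myocytes, was at 272 ± 22.5 TPM, and the zinc finger factor Gata4 at 240 ± 18.1 TPM. The ranges of Nkx2-5 (242 to 299 TPM) and Gata4 (211 to 261 TPM) overlapped, while Hopx lay above both in every heart. Nkx2-5 differed little between hearts, from 126 CPM in heart 11 to 150 CPM in heart 6. Over all lists of cardiac and cellular processes, 213 of 217 genes reached 1 CPM in every heart. Among all 55487 genes 13306 did so, and among 21974 protein-coding genes 12508. The lists were chosen with earlier results of these data known, so their count is no finding about them.

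**Figure D3:**
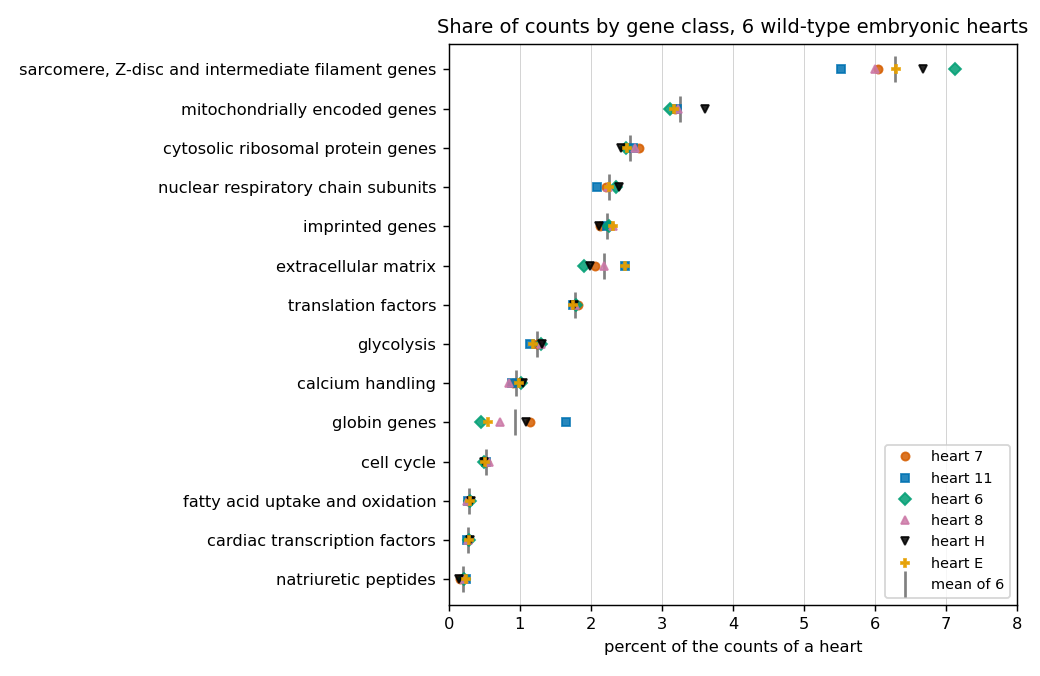
Percent of the counts of a heart held by each gene class in the 6 wild-type hearts; symbols are hearts and grey ticks their means. Sarcomere and filament genes lie between 5.52% and 7.12%, and globin genes span 0.449% to 1.64%.

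The 37 mitochondrially encoded genes held 3.25% ± 0.176 of the counts. Heart H stood apart at 3.60%, while the other 5 lay between 3.11% and 3.22%. Per exon length they held 8.72% ± 0.493 of all transcripts, with mt-Co1 at 21329 ± 1170 TPM, mt-Cytb at 21182 ± 1333 TPM and mt-Nd1, a subunit of complex I, at 17360 ± 1025 TPM. The values of mt-Co1 and mt-Cytb overlapped between hearts. These sums leave out several subunits that any respiring cell uses: mt-Co2 had 1 count in all 6 hearts together, mt-Co3 1, mt-Atp6 3, and mt-Atp8, mt-Nd3 and mt-Nd4l none. Of the 50-base words of mt-Co2, 100% occur in transcripts of another gene as well, and the share was 99.9% for mt-Co3, 99.5% for mt-Atp6, 98.0% for mt-Nd3 and 98.8% for mt-Nd4l. For mt-Atp8 it was 0%, and for mt-Cytb and mt-Nd1 also 0%. It was 51.1% for mt-Co1 and 62.2% for mt-Nd4, so the level of these counted genes may be too low as well, and mt-Co1 and mt-Cytb cannot be ranked. A read that maps to more than 1 place enters no count, so the level of genes with a share near 100% is not given by these data. For mt-Atp8 the share does not account for the missing counts, and why it had none was not tested. The words were searched in annotated transcripts only, so a share of 0% does not show that reads map to 1 place.

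Globins, the oxygen carriers of red cells, include pairs of near copies as well. Of the 50-base words of Hba-a1, 72.3% occur in another gene, and of Hba-a2 89.3%, of Hbb-bs 53.2% and of Hbb-bt 58.3%; the embryonic genes Hbb-y and Hba-x share none. The split between the copies is therefore uncertain. Globin genes held 0.933% ± 0.446 of the counts, from 0.449% in heart 6, over a median of 0.904% to 1.64% in heart 11, a range of 3.66-fold. Hearts 6 and E were low and heart 11 high. Alas2, the erythroid enzyme that starts haem synthesis, ran from 75.5 CPM in heart 6 to 367 CPM in heart 11, the same extremes. The mix of globins differed too. The ratio of the embryonic Hbb-y to the adult Hbb-bs in TPM was 1.75 in heart 8, 1.38 in heart 6 and 1.24 in heart 7, but 0.700 in heart 11, 0.546 in heart H and 0.416 in heart E. That of Hba-x to Hba-a1 was also highest in heart 8 (0.183) and lowest in heart E (0.0666). Both ratios were computed after the levels had been seen. Each leaves out the other adult copy, Hbb-bt (6650 ± 3415 TPM) or Hba-a2 (5979 ± 2913 TPM). The adult genes share 50-base words and the embryonic ones none, so both ratios may be too high. Their size therefore does not rank embryonic against adult globin. The share of blood in each sample and the age of the embryos were not tested.

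Because 6 of the 10 genes of widest spread between hearts at 50 CPM or more were globins, the 120 bases before their RefSeq start are shown (GRCm38.p6). The genes and motifs were chosen after the values and sequences had been seen. Capitals mark CCAAT and CACCC on either strand and TATAAA on the strand shown. Hbb-bs lies at chr7:103827929-103828048, Hbb-bt at chr7:103813924-103814043 and Hbb-y at chr7:103853208-103853327, all on the minus strand; Hba-x at chr11:32276480-32276599, Hba-a1 at chr11:32283552-32283671 and Hba-a2 at chr11:32296372-32296491, on the plus strand.
Hbb-y: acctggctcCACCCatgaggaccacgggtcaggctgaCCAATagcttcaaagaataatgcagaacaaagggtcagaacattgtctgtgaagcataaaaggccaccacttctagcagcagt
Hbb-bs: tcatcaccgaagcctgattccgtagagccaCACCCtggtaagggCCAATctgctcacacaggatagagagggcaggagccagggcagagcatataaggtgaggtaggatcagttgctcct
Hbb-bt: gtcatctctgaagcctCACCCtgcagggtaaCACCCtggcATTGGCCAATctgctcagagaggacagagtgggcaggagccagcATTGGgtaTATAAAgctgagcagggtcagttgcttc
Hba-x: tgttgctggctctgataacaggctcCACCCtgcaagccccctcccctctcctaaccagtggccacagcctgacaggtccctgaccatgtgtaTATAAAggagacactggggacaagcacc
Hba-a1: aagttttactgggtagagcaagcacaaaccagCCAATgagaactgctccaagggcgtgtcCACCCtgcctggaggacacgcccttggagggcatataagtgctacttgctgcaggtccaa
Hba-a2: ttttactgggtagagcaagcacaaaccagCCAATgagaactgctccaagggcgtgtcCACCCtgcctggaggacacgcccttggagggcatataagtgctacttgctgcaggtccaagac

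All 6 windows hold CACCC, which 31.7% of 32851 promoter windows of this length hold, and all but Hba-x hold CCAAT, which 21.3% hold. TATAAA is in Hbb-bt and Hba-x and in 4.19% of all windows. Hba-a1 and Hba-a2 are identical over a run of 117 bases, while the longest run that Hbb-bs and Hbb-bt share is 14 bases. A match is a description of the letters and not of a site in use.

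The balance within 25 pairs of related genes was tested by an exact sign-flip permutation test over the 6 hearts, two-sided, on the log2 ratio of the levels per exon length, with Benjamini-Hochberg adjustment over the pairs. The smallest p that 6 hearts allow is 0.03125, which becomes 0.0326 after adjustment. Of the 25 pairs 24 reached it (96% called), 21 with the gene named first higher and 3 with the second higher in all 6 hearts. The pairs were chosen with earlier results of these data known, and pairs of other genes were not tested. The number called is therefore no finding about the pairs. With so few hearts the test says only that the direction was the same in each, and the pairs differ in the size of the ratio. That size depends on the exon length used and on whether the count regards strand. Where either moved it by over 1.5 times the other value is given. Counts without regard to strand are not the sum of both strands. In every heart their total (35116041 to 40220768) was below that on the gene's own strand (36032788 to 41337949). A shift with them is therefore not a measure of opposite-strand reads.

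In the thick filament, Myh7 exceeded the fast alpha chain Myh6 3.25-fold, at 5480 ± 1039 against 1678 ± 254 TPM. The ratio was smallest in heart 8 (2.26-fold) and largest in heart H (5.47-fold). Of the 50-base words, 20.2% of Myh6 and 20.04% of Myh7 occur in another gene. Myl3, the ventricular essential light chain, exceeded the atrial and fetal Myl4 3.32-fold. Between Myl7 and Myl2, the atrial and ventricular regulatory light chains, the direction was not the same in every heart: Myl2 was higher in 4, and Myl7 in hearts 11 and 8 (exact sign-flip permutation test, p = 0.1875, n = 6). Their log2 ratio was -0.43 ± 0.65 and ranged from -1.42 in heart H to 0.37 in heart 11. This rests on the length of all annotated exons: with the longest transcript of each gene it was -1.57, and the pair passed the test with Myl2 higher (exact sign-flip permutation test, adjusted p = 0.0313).

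In the thin filament, Actc1 exceeded the skeletal alpha-actin Acta1 56.7-fold, from 45.6-fold in heart 7 to 63.2-fold in heart H. Tnni1, the slow skeletal troponin I of the fetal heart, exceeded Tnni3, the cardiac form of the adult, only 1.49-fold. Between hearts this was the steadiest of all pairs, from 1.41- to 1.54-fold. Its size depends on the length used: with the longest transcript the log2 ratio was 0.13 in place of 0.57, near equal levels. Tnnt2 exceeded Tnnt1 3.88-fold and Tpm1 exceeded Tpm2 13.0-fold. For these last pairs the spread was also small beside the ratio, with log2 values of 1.96 ± 0.22 and 3.70 ± 0.17. With the longest transcript the log2 ratio of Tpm1 to Tpm2 was 4.45.

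Calcium handling genes, 18 of 18 above 1 CPM in every heart, held 0.947% ± 0.0794 of the counts. Atp2a2, the calcium pump of the sarcoplasmic reticulum, was the highest of them at 1828 ± 137 TPM. Pln, its inhibitor, exceeded the atrial inhibitor Sln 24.4-fold, but with the widest spread of all pairs, from 10.3-fold in heart 11 to 49.9-fold in heart H. Counted without regard to strand, the log2 ratio of this pair was 2.66 in place of 4.61, and 56.2% of the 50-base words of Pln occur in another gene. Casq2 exceeded Casq1, the skeletal calcium store, 3.21-fold, and the release channel Ryr2 exceeded Ryr3 15.1-fold. Of the voltage-gated calcium channels, the L-type Cacna1c exceeded Cacna1d 5.78-fold and the T-type Cacna1h exceeded Cacna1g 2.90-fold. Hcn4, the pacemaker channel, was at 21.7 ± 3.76 TPM and Hcn2 at 1.30 ± 0.154 TPM. Gja1, the gap junction protein of working myocardium, exceeded Gja5, which is found in atria and conduction tissue, 1.88-fold, a log2 ratio of 0.91 that was 1.67 with the longest transcript.

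Nppa exceeded Nppb, the B-type natriuretic peptide, 9.55-fold, from 5.92-fold in heart 6 to 18.5-fold in heart 11. This pair, too, depends on whether the count regards strand. Counted without regard to strand, the log2 ratio was 0.50 in place of 3.26 and missed the threshold (exact sign-flip permutation test, adjusted p = 0.0977). The natriuretic peptide list then held 0.0732% of the counts in place of 0.200%. That count thus holds fewer reads of the list, and why was not tested. Of the 50-base words of Nppa, 53.4% occur in another gene. Such words can belong to a gene that overlaps at the same place on either strand. This share, like that of Pln, therefore does not show that reads were lost.

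In the genes of energy metabolism, the form of many tissues or of the fetus was the higher one in all pairs but those of creatine kinase and the fatty acid-binding proteins. Slc2a1, the basal glucose transporter, exceeded the insulin-regulated Slc2a4 6.19-fold, Hk1 exceeded Hk2 2.79-fold and Ldha exceeded Ldhb 1.32-fold. The log2 ratios of the hexokinase and lactate dehydrogenase pairs were 1.48 and 0.40, and with the longest transcript they were 2.36 and 0.998. For the cytochrome oxidase subunits, Cox6a1, Cox7a2 and Cox8a exceeded the heart and muscle forms Cox6a2, Cox7a1 and Cox8b 2.36-, 3.10- and 8.57-fold. Creatine kinase went the other way, with the muscle form Ckm 3.60-fold above the brain form Ckb. Ckm was at 318 CPM in heart 8 and 685 CPM in heart E, whereas Ckb stayed between 124 and 145 CPM. Counted without regard to strand, the log2 ratio of Ckb to Ckm was -0.97 in place of -1.85. Fabp3, the heart fatty acid-binding protein, exceeded Fabp4, which is found in fat and endothelium, 7.79-fold. Cpt1a, the liver form of the enzyme that admits fatty acids to mitochondria, exceeded the muscle form Cpt1b 11.2-fold. Of the exon bases of Cpt1b 81.4% lie also in another gene on the same strand, where reads are not counted, so that its level is too low. Per exon base shared with no other gene the log2 ratio of Cpt1a to Cpt1b was 1.07 in place of 3.49, and with the longest transcript it was 4.09.

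**Figure D4:**
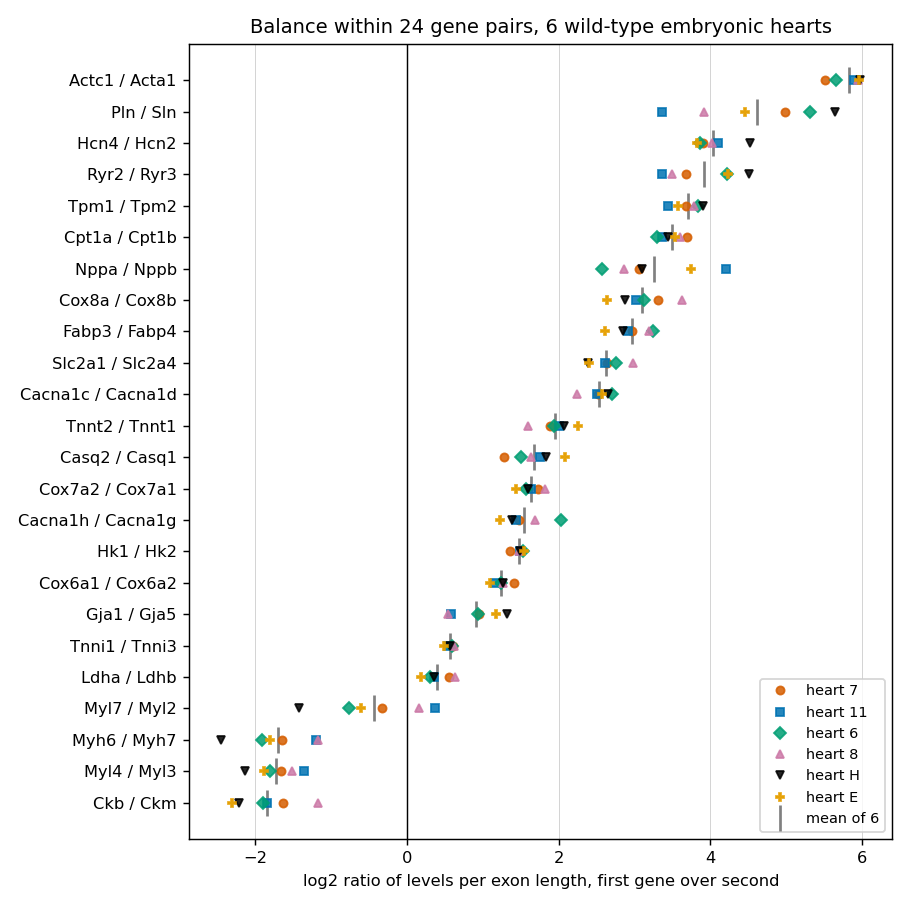
Log2 ratio of the levels per exon length of 24 of the gene pairs, first gene over second, in the 6 wild-type hearts; symbols are hearts, grey ticks their means and the line marks equal levels. All pairs shown but Myl7 / Myl2 lie on 1 side of the line in every heart.

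Hearts 11 and 8 on one side and heart H on the other lay apart in the chamber markers too. These lists share genes with the pairs above. Hearts 11 and 8 were low for the 10 ventricular markers (18322 and 19624 CPM) and high for the 12 atrial ones (5917 and 5485 CPM), while heart H had the highest ventricular sum (27387 CPM) and the lowest atrial sum (3621 CPM). Hearts 11 and 8 were also the highest for the epicardial list, at 744 and 676 CPM. The part of each heart that was sampled is not stated, and its role in these differences was not tested.

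The matrix list of 27 genes held 2.18% ± 0.250 of the counts. Its highest member per length was Sparc, a collagen-binding glycoprotein, at 1413 ± 118 TPM, followed by Col1a1 at 1241 ± 433 TPM and Col3a1. Col1a1 ran from 1445 CPM in heart 6 over a median of 2221 to 3722 CPM in heart 11. Eln, the elastin of large arteries and valves (named as 1 of 34 genes of wide spread, after its values were seen), ran from 556 CPM in heart 8 over a median of 947 to 1527 CPM in heart E, and its order between hearts was not that of Col1a1: heart 11, the highest for Col1a1, was among the lowest for Eln at 599 CPM.

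Imprinted genes, of which only 1 parental copy is active, were prominent: 22 genes held 2.23% ± 0.0850 of the counts, and 21 of them reached 1 CPM in every heart. After H19 the highest were Mest at 1928 ± 219 TPM and Cdkn1c, an inhibitor of the cell cycle, at 1113 ± 168 TPM. Igf2 stood at only 143 TPM on average, but 62.8% of its exon bases lie in another gene on the same strand, and its level is likewise a lower limit.

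Variation between hearts was measured by the biological coefficient of variation (BCV), the spread beyond counting error. Over 22268 genes with at least 10 counts the common BCV was 18.1%, and it was 13.6% without heart 7 and 11.1% without hearts 7 and 11. Among 4658 genes whose mean reached 50 CPM, the median gene-wise BCV was 5.07%, and 34 of them (0.730%) exceeded 30%. The genes of widest spread at this level included Ddx3y at 169%, Alas2 at 53.7%, the globins Hbb-bs, Hbb-y, Hbb-bt, Hba-a2, Hba-x and Hba-a1 at 47.3% to 53.1%, and Slc4a1, the anion exchanger of red cells, at 46.9%. Apart from the Y-linked Ddx3y these are genes expressed in erythroid cells. At the other end 121 genes were at 0.988%, the lowest value the method gives, so that no order exists among them. Those of highest CPM in this group included the ribosomal protein Rpl22, ubiquitin Ubb and the survival factor Mcl1.

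By class, the median BCV of genes at 50 CPM or more was 3.46% for 76 ribosomal protein genes, 6.19% for 72 respiratory chain subunits, 16.5% for 20 collagen genes and 50.4% for 6 globin genes. For the 12 thick filament genes it was 15.3%. The most abundant genes were thus not the steadiest: the 77 genes at 1000 CPM or more had a median BCV of 8.81%, against 4.89% for the 2403 genes between 50 and 100 CPM.

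**Figure D5:**
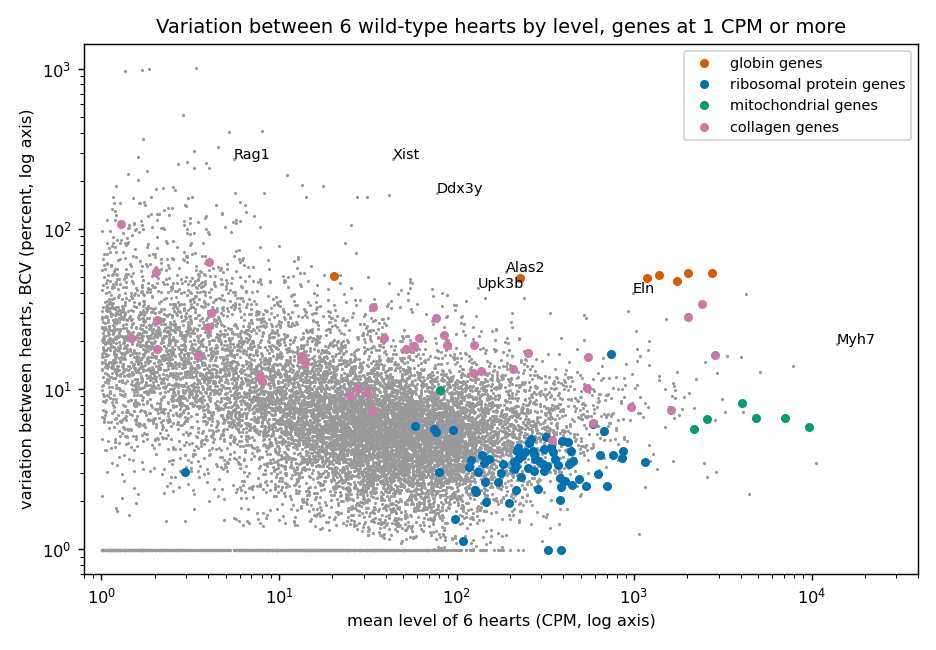
Variation between the 6 wild-type hearts beyond counting error (BCV in percent, log axis) against mean level (CPM, log axis); each point is 1 gene at 1 CPM or more. Globin genes lie near 50%, most ribosomal protein genes below 5%, and genes with no measurable variation line up at 0.988%.

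In a principal component analysis of the 500 genes of largest variance, the first component held 52.6% of the variance and separated heart 7 from the rest. Its leading genes were Gzma, Pax1, Il2ra, Rag1 and Psmb11. The second held 26.9% and separated heart 11, with Nkx2-1, Foxa2 and Sox2 among its 10 leading genes. The third held 12.1% and had heart 8 at its end, led by Xist. Compared with the mean of the other 5, heart 7 had 53 genes at least 2-fold higher and 4 lower of 11282 genes with a mean of 5 CPM, heart 11 had 62 and 7, and heart E 13 and 16. In hearts 6, 8 and H most deviations were downward (42, 26 and 44 genes). The minimum applies to the mean of all 6 hearts, so that a gene such as Gzma or Rag1 passed it through heart 7 alone, had to be high there, and lowers the other hearts against a mean that includes heart 7. These counts therefore describe the libraries and do not show in which hearts a gene is unusual. Heart E differed most in Alb and Afp, secreted proteins of the fetal liver, which were also at 17.2 and 19.1 CPM in heart 11 and 15.6 and 14.7 CPM in heart H, but below 1 CPM in hearts 7, 6 and 8. In heart E Alb stood at 47.0 CPM. It also had Myh3, the embryonic skeletal myosin, at 16.8 CPM, against 11.5 CPM in heart 11 and at most 2.87 CPM elsewhere.

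Xist, the RNA that coats the inactive X chromosome, was at 262 CPM in heart 8 and at most 0.196 CPM in the other 5. The Y-linked Ddx3y, Eif2s3y, Kdm5d and Uty had no count in heart 8, and in the other hearts Ddx3y lay between 88.2 and 98.4 CPM. Heart 8 thus differed from the rest by the transcripts of both sex chromosomes. Genes of the X chromosome together held 2.999% of the counts in heart 8 and 2.90% to 2.95% in the others. Among X-linked genes that are known to be active on both copies, looked at after the values were seen, Kdm6a was at 66.9 CPM in heart 8 against 44.0 to 49.8 CPM, Eif2s3x at 48.1 against 28.0 to 30.9 CPM, and Kdm5c at 210 against 148 to 154 CPM. Ddx3x was at 585 CPM in heart 8 and 448 to 501 CPM in the others. How often heart 8 lay outside the range of the other 5 over all genes was not counted, and with 1 heart no test can be made.

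Pde2a, the phosphodiesterase gene targeted in the series, had 2 counts in heart 11, 1 in heart 8 and none in the other 4 wild-type hearts, under the limit of 3 counts that a count of 0 allows. Of its exon bases 64.3% lie also in another gene on the same strand, where reads are not counted. Its other exon bases gave almost no reads either, and why was not tested. The version of the annotation that the authors counted with is not given. The counts of Pde2a are therefore taken as no level of the gene in wild-type tissue and no check of the genotype labels.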

How the data were processed

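Stranded mRNA libraries of E14.5 hearts were sequenced as single-end reads on a NextSeq 500. The authors mapped them with STAR to GRCm38 (mm10) and deposited whole-number counts per gene, unnormalized, without strand and on each strand; the versions of STAR and of the annotation are not given in the sources used here. The column on the gene's own strand was used; the opposite column held 4.13% to 4.73% of both. Counts of reads not on 1 gene were left out of totals. GENCODE M21 named 55227 genes and gave exon lengths (union of exons); 260 had no annotation. A symbol with several identifiers, such as Aldoa, was taken as the one with more counts.

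CPM used the plain total and TPM the exon length; log2 CPM used a prior count of 2 and pair ratios 0.5 added counts. The sign-flip test is exact and two-sided. BCV came from edgeR 4.0.16 in R 4.3.3 after TMM, in genes of at least 10 counts, without squeezing of the gene-wise values. That last choice was made after the default, squeezed values of these hearts and a test on simulated data had been seen. In the simulation a true BCV of 60% in 200 genes came back as a median of 55.9% unsqueezed and 27.7% squeezed, and 15% as 13.5% and 16.2% over 21840 genes. The 200 highest held 28 of the changed genes unsqueezed and 117 squeezed over all genes, and 183 and 182 among the 12346 genes with a mean of 100 counts.

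The replicates are separate hearts. The hearts, lists, pairs and rules were chosen with earlier results of these data known. Named are the 25 highest nuclear genes in TPM and 15 in CPM, mitochondrial protein genes, pair genes, the 3 highest in each list, the 10 of largest and smallest BCV at 50 CPM, the 5 largest deviations of each heart at 5 CPM, the 5 of highest opposite-strand count, sex-linked genes and Pde2a; others carry a remark or were members of a list named for hearts that stood apart. Ahsp was not found by that symbol, and a few genes that meet these rules, with 1 of the pairs, are not reported here. Alternatives were other lengths, counts without regard to strand, other scalings and filters, DESeq2 1.42.0, and hearts left out in turn. Counting error is not shown as an interval because the SD over hearts includes it. Python 3.11.15 with numpy 2.4.6, pandas 2.3.3 and, for figures, matplotlib 3.10.9 did the rest.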

Additional observations from a re-analysis of the deposited data

Results flagged for a closer look

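Of 185 values over the 6 hearts, 26 had a single heart far from the other 5 by Dixon's criterion. Chance gives about 1 in 20, but the number cannot be read against it, because many of the 136 genes among these values were named for their deviation or spread. Of these, 11 concern heart 7. It was high for the thymus and lymphocyte list (137 CPM) and for Cd3g (22.9 CPM), Gzma (47.9 CPM), Il2ra (31.4 CPM), Lck (23.4 CPM), Pax1 (49.7 CPM), Prss16 (65.7 CPM), Psmb11 (27.1 CPM), Rag1 (33.3 CPM) and Krt5 (97.3 CPM), and low for the log2 ratio of Hk1 to Hk2 (1.35, against 1.48 to 1.54). Heart 11 was high for Krt15 (15.9 CPM) and for Myh14 (31.1 CPM), a non-muscle myosin, and heart E for Alb (47.0 CPM).

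Heart 8 had Xist at 262 CPM and Ddx3y, Eif2s3y, Kdm5d and Uty at 0, and it was the lowest for Eef1a1 at 4270 CPM, against 4411 to 4482 CPM. Heart 6 was the highest for Csrp3, a Z-disc protein, at 740 CPM, against 600 to 628 CPM. Heart H was the highest for the mitochondrially encoded share (3.60%), mt-Co1 (10614 CPM) and mt-Cytb (7973 CPM). For mt-Co2 in heart 11 (0.0278 CPM) and mt-Co3 in heart 6 (0.0269 CPM) the value is 1 read against none and carries no information.

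Reads on the opposite strand were not used in the results. At 100 CPM or more, the median gene had 0.818 such reads per 100 on its own strand. For Copg2 there were 854 per 100, for Cdc23 44.4, for Snw1 29.8, for Cand2 25.7 and for Erp29 20.7. Copg2 was the only 1 of 2255 genes with more reads on the opposite strand than on its own.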

How the results depend on the processing

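The hearts are not paired with other samples. No paired analysis was possible because only 1 group was described. Of the 25 pair ratios 0 changed direction with another length, with counts without regard to strand or with a heart left out. However, 10 values over 9 pairs moved by over 1.5 times and are given with the pairs. The calls numbered 25 with the longest transcript, where Myl7/Myl2 passed (log2 ratio -1.57, adjusted p = 0.0313 in the exact sign-flip permutation test). They numbered 24 with unshared exon bases and 23 without regard to strand, where Nppa/Nppb missed (0.50, adjusted p = 0.0977 in the same test). With 5 hearts the test cannot go below 0.0625, so leaving hearts out gives values only. Shares scale with their total: with all reads as the total the mitochondrial, ribosomal protein, respiratory chain, sarcomere and matrix shares were 2.55%, 2.002%, 1.77%, 4.92% and 1.71%. As shares of TPM the mitochondrial, ribosomal protein, respiratory chain, globin and matrix shares were 8.72%, 5.15%, 4.19%, 4.37% and 0.942%. Counted without regard to strand the mitochondrial share was 3.46%.

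The common BCV was 12.2% with filterByExpr and 11.1% without hearts 7 and 11, and 13.6% to 19.3% with each heart left out, the lowest without heart 7. The gene-wise median at 50 CPM was 5.07%, 6.43% when squeezed to the trend, 5.62% by DESeq2, 4.74% without hearts 7 and 11 and 4.64% to 5.27% with each left out. Over all genes in the fit it depended far more on the method: 6.73% unsqueezed, 17.3% squeezed, 14.3% by DESeq2, 11.5% without a filter, 6.05% with filterByExpr, 5.86% without hearts 7 and 11 and 6.24% to 6.76% with each left out. All 10 of the genes of widest spread at 50 CPM were also the 10 widest when squeezed, but none was at the lower bound then, where the lowest value was 4.72%. The first component held 43.4% after the variance stabilizing transformation, 42.6% with 2000 genes and 54.7% to 69.5% with each heart left out. Deviations of 2-fold or more, 284 over the 6 hearts, numbered 55 after that transformation, 183 to 294 with each heart left out, the fewest without heart 7, and 120 without hearts 7 and 11. The cause of these shifts was not tested.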
